A study of Mus musculus with 24 samples.

Results

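The triggering receptors expressed on myeloid cells (TREM receptors) and the adaptor proteins through which they signal were followed as 7 genes of the 55291 counted: the receptor genes Trem1, Trem2, Trem3, Treml2 and Treml4, and the adaptor genes Tyrobp, which encodes DAP12, and Hcst, which encodes DAP10. They were chosen by name because TREM-1 has been reported as a receptor of extracellular cold-inducible RNA-binding protein (eCIRP) beside TLR4. All 7 were counted in these libraries, and all 7 passed the filter on low counts both over the whole series and within each genotype alone, so none owed its place to the genotype in which it was higher.

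Pulmonary fibroblasts came from WT C57BL/6 mice and from TLR4-/- mice on the same background, 4-8 weeks old, with 3-4 lungs pooled for each isolation. At passages 3-6 the cells spent a night in reduced serum and were then treated for 24 h with PBS, with recombinant mouse CIRP (rmCIRP) at 1 μg/mL, with rmTGF-β1 at 2 ng/mL or with rmCIRP plus rmTGF-β1. Each of the 8 conditions had 3 libraries of total RNA. No source states that the 3 were separate isolations, so p-values measure the spread between these libraries, which may be technical. The TLR4-/- allele is not described in the labels, and every mouse, cell and library within a genotype shares whatever else distinguishes the 2 stocks and their isolations, so that genotype and isolation cannot be told apart.

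Between 29853346 and 39664606 reads were counted on genes per library. Tlr4 mRNA itself was not lower in the libraries labelled TLR4-/-: with PBS it stood at 927, 892 and 891 normalized counts against 718, 802 and 758 in WT. It was higher there by 0.25 on the log2 scale (SE 0.06, edgeR adjusted p = 0.00123). With rmCIRP, rmTGF-β1 and both agents it was higher by 0.27, 0.23 and 0.30. A count over the whole gene does not show which exons were read, so this neither bears out nor contradicts the label, and the libraries are called by it. Fibroblast markers were abundant in both genotypes, with 8 of 8 present. Their summed level was 399219 to 567908 normalized counts in WT and 391672 to 535154 in the libraries labelled TLR4-/-. Macrophage markers were present too, and all 13 were counted in every condition. Their summed level was 74995 to 99131 in the 12 WT libraries and 337828 to 435575 in the other 12, of which Lyz2 gave 74.8% to 81.5%. The fibroblast sum thus lay far above the macrophage sum in WT, whereas in the libraries labelled TLR4-/- their ranges overlapped. Of 11 neutrophil markers, 7 in WT and 8 in the other genotype had at most 10 reads in every library, as did 8 or 9 of 10 T, B and NK cell markers and 3 of 5 dendritic cell markers. In RNA from a whole culture, fewer macrophages and less of an mRNA per macrophage cannot be told apart.

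TREM receptors are cell-surface proteins of the immunoglobulin superfamily most of which have short tails without a signalling motif of their own. A charged residue in the membrane pairs most of them with DAP12, whose immunoreceptor tyrosine-based activation motif (ITAM) recruits the kinase Syk, while DAP10 carries a YINM motif that recruits phosphoinositide 3-kinase. TREM-1 is known for amplifying Toll-like receptor responses in neutrophils and monocytes, whereas TREM-2 is known for lipid sensing, phagocytosis and survival in tissue macrophages and microglia. These genes are textbook myeloid genes, and the receptor genes lie side by side in the mouse genome, as do the adaptor genes.

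The promoter windows of the 3 receptor genes that RefSeq's table holds are shown as a description. Their part in the changes of these genes was not tested. Each runs 5′ to 3′ on the gene's strand, from 250 bases before the start site to 50 after it, in GRCm38.p6: chr17:48232489-48232788 for Trem1, chr17:48346151-48346450 for Trem2 and chr17:48264045-48264344 for Treml4, all on the plus strand. Capitals mark matches, on either strand, to GAGGAA (the core bound by PU.1 and other ETS factors), TGANTCA (AP-1) and TTGCNNAA (a C/EBP type site).
Trem1: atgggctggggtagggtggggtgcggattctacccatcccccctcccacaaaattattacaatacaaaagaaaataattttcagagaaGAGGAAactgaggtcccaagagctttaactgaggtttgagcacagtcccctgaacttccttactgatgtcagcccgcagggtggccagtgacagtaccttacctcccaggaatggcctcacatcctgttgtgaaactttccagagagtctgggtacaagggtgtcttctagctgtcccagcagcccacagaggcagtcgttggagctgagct
Trem2: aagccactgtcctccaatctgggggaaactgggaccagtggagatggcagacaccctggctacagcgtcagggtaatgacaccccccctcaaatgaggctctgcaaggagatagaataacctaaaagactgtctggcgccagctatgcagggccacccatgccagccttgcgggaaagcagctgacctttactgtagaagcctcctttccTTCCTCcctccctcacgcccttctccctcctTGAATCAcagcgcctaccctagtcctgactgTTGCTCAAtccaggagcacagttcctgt
Treml4: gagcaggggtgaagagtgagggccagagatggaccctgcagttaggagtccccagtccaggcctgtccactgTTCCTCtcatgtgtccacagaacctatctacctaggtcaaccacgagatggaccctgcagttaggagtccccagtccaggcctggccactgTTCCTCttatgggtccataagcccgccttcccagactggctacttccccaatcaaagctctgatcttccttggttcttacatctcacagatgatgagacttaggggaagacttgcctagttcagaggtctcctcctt
The Trem1 window held 1 match, GAGGAA beginning at -162 from the start site. The Trem2 window held GAGGAA on the minus strand at -40, TGANTCA at -9 and TTGCNNAA at 23, with no overlap between them. The Treml4 window held GAGGAA on the minus strand at -178 and -87. Of 32851 promoter windows of the same length, 28.3% held GAGGAA, 7.81% TGANTCA and 10.8% TTGCNNAA, so GAGGAA in particular is common. The table also matched Hcst, whose window held none of these motifs, and it did not match Trem3, Treml2 or Tyrobp.

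Levels differed widely among the 7 genes. On a scale corrected for exon length and depth (RPKM computed from the counts), Tyrobp was the most abundant, with a median of 59.7 in WT libraries and 293 in those labelled TLR4-/-. Trem2 followed at 3.73 and 22.2, then Trem1 at 1.97 and 17.6. Trem3, Hcst, Treml4 and Treml2 were scarce, at 0.325, 0.284, 0.290 and 0.0428 in WT libraries and 1.47, 1.37, 0.493 and 0.422 in the others. In WT these scarce genes rested on 2 to 32 reads per library, so that small differences between them were not detectable at this depth, and the order of Trem3, Treml4 and Hcst is within their spread. Exon lengths came from the union of all annotated transcripts, 4946 bases for Trem2 and 4917 for Treml2, and a level on this scale depends on which transcripts are included.

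**Figure D1:**
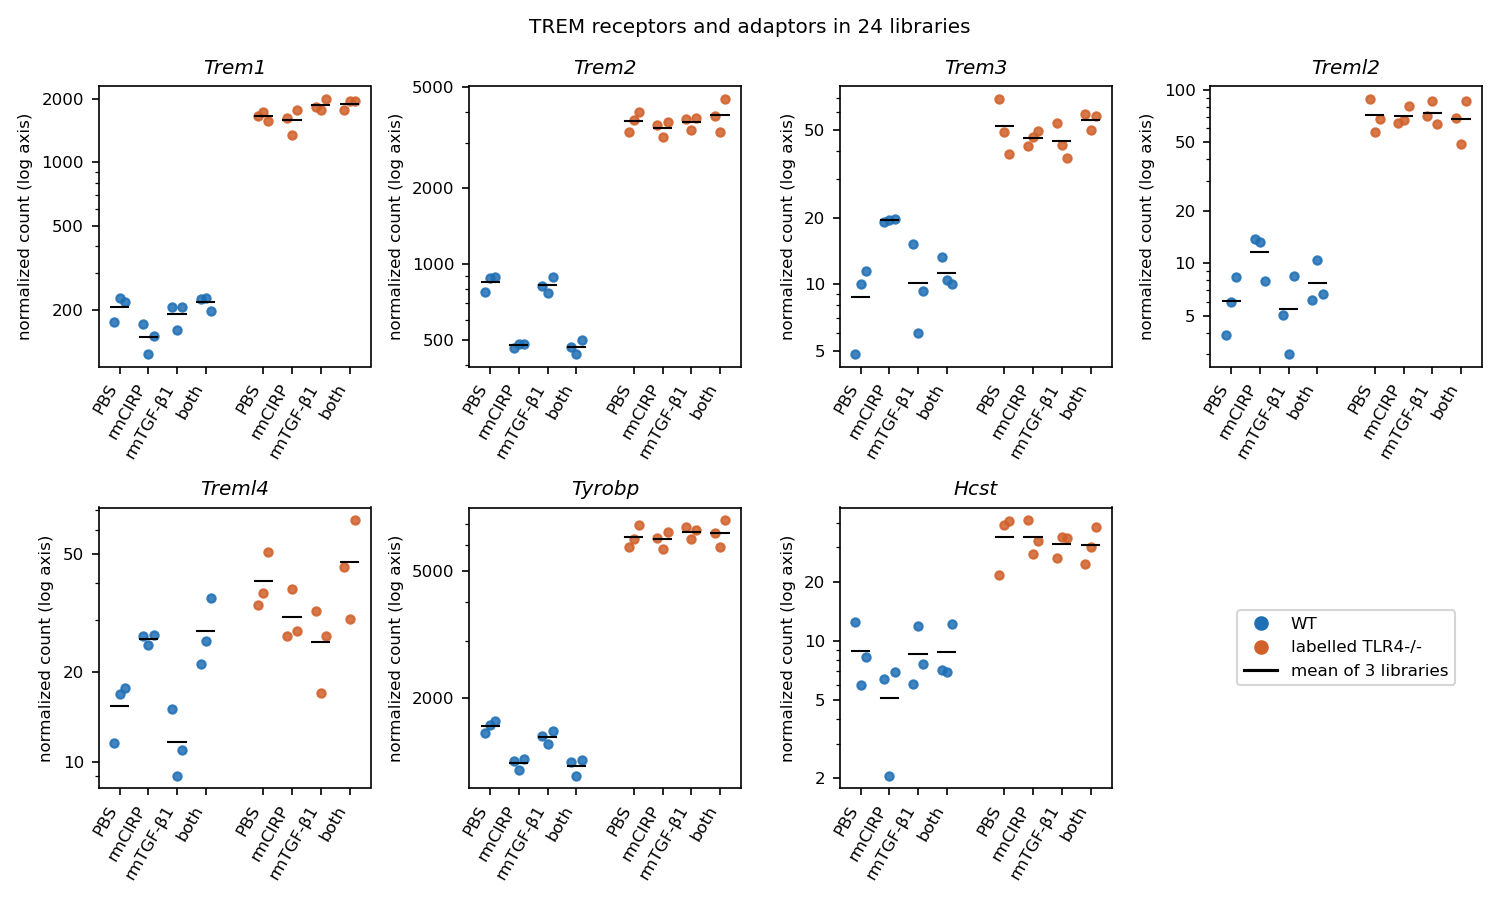
Normalized counts (log axis) of the 7 genes in 24 libraries, by condition; points are libraries and bars the mean of 3. For every gene but Treml4 the 12 libraries labelled TLR4-/- lie above the 12 WT libraries, and in WT Trem2 and Tyrobp stand lower in the 6 libraries with rmCIRP than in the 6 without.

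The first question was whether rmCIRP changed these genes in WT cells. With rmCIRP, 5 of the 7 genes passed the threshold (adjusted p under 0.1 in edgeR's quasi-likelihood test): Trem2, Trem1 and Tyrobp fell, and the low-count genes Trem3 and Treml4 rose. Of all 16258 genes tested, 43.9% were called in this comparison, 24.1% lower and 19.8% higher, and in 50.8% the groups of libraries did not overlap, as in these 5. The median log2 fold change of the 7 was -0.39, against -0.02 over all genes.

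Trem2 changed with the greatest certainty. Its normalized counts were 775, 882 and 887 with PBS and 467, 483 and 484 with rmCIRP. The groups were far apart, and mean Trem2 fell by 43.8% (log2 fold change -0.83, SE 0.10, edgeR adjusted p = 9.86e-07).

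Trem1, the gene of the reported eCIRP receptor, stood at 175, 228 and 219 normalized counts with PBS and 172, 123 and 150.2 with rmCIRP. The highest rmCIRP library lay just under the lowest PBS library. Trem1 fell by 0.48 on the log2 scale (SE 0.14, edgeR adjusted p = 0.00916), and the call held when any of the 6 libraries was left out, with adjusted p of up to 0.0717.

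Trem3, which in mice encodes a further DAP12-coupled receptor, was counted at 4.81, 9.98 and 11.4 with PBS and 19.1, 19.5 and 19.8 with rmCIRP, in normalized counts. The groups did not overlap, on 5 to 20 reads per library. Its log2 fold change was 1.15 (SE 0.34, edgeR adjusted p = 0.0107).

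Treml4, encoding a receptor of macrophages and dendritic cells, stood at 11.5, 16.97 and 17.7 normalized counts with PBS and 26.5, 24.7 and 26.7 with rmCIRP. The groups were apart, but the call was marginal: the log2 fold change of 0.75 (SE 0.33) had an edgeR adjusted p of 0.0800, and 5 of the 6 fits that left out 1 library lost it, with adjusted p of up to 0.237. The remaining receptor gene, Treml2, was counted at 3.85, 5.99 and 8.33 with PBS and 13.8, 13.4 and 7.90 with rmCIRP. Its groups overlapped and the log2 fold change of 0.93 (SE 0.46) did not pass (edgeR adjusted p = 0.117).

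Of the adaptors, Tyrobp stood at 1554, 1638 and 1694 normalized counts with PBS and 1267, 1187 and 1288 with rmCIRP. The groups were clearly apart, and Tyrobp fell by 0.39 on the log2 scale (SE 0.07, edgeR adjusted p = 0.000176). Hcst rested on 13, 6 and 8 reads with PBS and 6, 2 and 7 with rmCIRP, and its log2 fold change of -0.80 (SE 0.49) did not pass (edgeR adjusted p = 0.209).

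Macrophage markers moved in the same comparison, and their part in these results was not tested: of 13 tested, 10 were lower and 3 higher, with a median log2 fold change of -0.36 and a range from -0.71 to 2.26. The 3 that rose were Fcgr1, Adgre1 and Ptprc. Trem2 fell further than each of the 13 markers, while Tyrobp and Trem1 lay among them. The summed neutrophil markers were 164 to 196 normalized counts with PBS and 453 to 489 with rmCIRP, and S100a8 and Csf3r, a granulocyte calgranulin and the G-CSF receptor, rose by 1.04 and 2.41 on the log2 scale; 4 of the 11 neutrophil markers were at 0 in all 3 libraries of either condition. The part of these in the rise of Trem3 was likewise not tested.

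Under rmTGF-β1 the picture was partly the same. rmTGF-β1 alone changed none of the 7 genes against PBS in WT cells, where 12.4% of all genes were called, and neither edgeR at an unadjusted p under 0.05 nor DESeq2 called a member. Log2 fold changes ran from -0.40 to 0.21. When rmCIRP plus rmTGF-β1 was set against rmTGF-β1, 3 of the 7 were called, against 42.2% of all genes (20.5% higher, 21.7% lower): Trem2 and Tyrobp fell and Treml4 rose. These WT comparisons use different control libraries, PBS for rmCIRP alone and rmTGF-β1 for the combination.

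Trem2 stood at 817, 766 and 888 normalized counts with rmTGF-β1 and 471, 441 and 502 with both agents, groups far apart, a log2 fold change of -0.81 (SE 0.10, edgeR adjusted p = 1.76e-06). Tyrobp stood at 1516, 1433 and 1576 and then 1256, 1139 and 1273 (log2 fold change -0.31, SE 0.07, edgeR adjusted p = 0.00201). Treml4 stood at 15.1, 8.999 and 10.99 and then 21.4, 25.5 and 35.5 (log2 fold change 1.22, SE 0.35, edgeR adjusted p = 0.00827). In all 3 genes the groups did not overlap, which held for 50% of all genes in this comparison. Macrophage markers moved here too, with 7 of 13 lower, 3 higher and a median of -0.22, as did 3 of the 4 tested neutrophil markers, upward, with a median of 1.72, and their part was not tested. The call of Treml4 held with each of the 6 libraries left out, with adjusted p of up to 0.0600, unlike its call without rmTGF-β1.

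Trem1 was not called in this comparison. It was counted at 207, 160.0 and 206 with rmTGF-β1 and at 224, 229 and 198 with both agents, normalized counts that overlapped between the groups. Its log2 fold change was 0.18 (SE 0.13, edgeR adjusted p = 0.332), where rmCIRP alone had lowered it. The difference between these responses was 0.66 (SE 0.19) on the log2 scale and did not pass (edgeR adjusted p = 0.462); this test called 8 genes in all, 0.0492% of those tested. DESeq2 put the same difference at an adjusted p of 0.0989 and edgeR without the filter on low counts at 0.000379, so that the call depended on the tool and the filter. With 1 library left out at a time, the difference for Trem1 did not pass in any of 12 fits (edgeR adjusted p from 0.352 to 0.842). The same test gave 0.02 (SE 0.14) for Trem2 and -0.995 (SE 0.51, edgeR adjusted p = 0.893) for Trem3. Trem3 had a log2 fold change of 0.16 (SE 0.37) with both agents against rmTGF-β1. None of the 7 genes passed this test of the difference under the main settings.

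**Figure D2:**
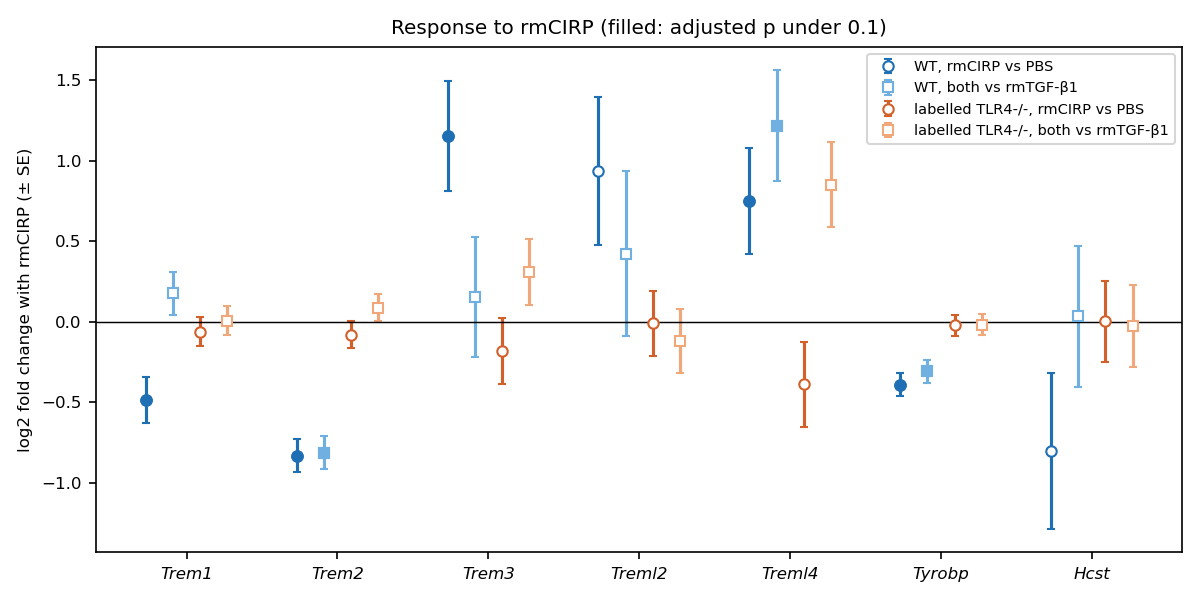
Log2 fold change with rmCIRP (± SE) of each gene in 4 comparisons, 3 libraries against 3; filled symbols passed an adjusted p under 0.1. Trem2 falls by 0.83 and 0.81 in both WT comparisons and lies within 0.09 of 0 in both comparisons of libraries labelled TLR4-/-.

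In the libraries labelled TLR4-/-, no change of these genes was called with rmCIRP. None of the 7 was called against PBS (edgeR), nor was any other gene, 0% of 16258; 1136 genes had an unadjusted p under 0.05, and DESeq2 called 33, none of them a member. No member had an unadjusted p under 0.05. Trem2 was counted at 3314, 3706 and 3979 with PBS and 3552, 3191 and 3629 with rmCIRP, overlapping groups with a log2 fold change of -0.08 (SE 0.08, edgeR adjusted p = 0.933). Trem1 was counted at 1657, 1734 and 1566 with PBS and 1620.2, 1352 and 1764 with rmCIRP (log2 fold change -0.06, SE 0.09). Tyrobp differed by -0.02 (SE 0.07). For these 3 genes the SE was 0.07 to 0.09, beside WT changes of -0.83, -0.48 and -0.39.

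rmTGF-β1 called none of the 7 in these libraries, where 23.9% of all genes were called. Treml4 came nearest, at 33.6, 37.1 and 50.8 normalized counts with PBS and 32.2, 17.004 and 26.6 with rmTGF-β1, a log2 fold change of -0.66 (SE 0.27, edgeR adjusted p = 0.102). Trem1 was next, at 1657, 1734 and 1566 with PBS and 1831, 1767 and 1998 with rmTGF-β1. Its log2 fold change was 0.18 (SE 0.09, edgeR adjusted p = 0.173). Trem1 passed in edgeR with only the libraries compared (adjusted p = 0.0593) and with no filter on low counts (adjusted p = 0.0646). Set against rmTGF-β1, both agents together also called none, against 2.69% of all genes. That background of 437 genes rested on single libraries: it was 0 without rmTGF-β1 library 1, 1 without library 3 of both agents and 2674 without library 1 of both agents. Treml4 then stood at 45.4, 30.3 and 64.9, overlapping the rmTGF-β1 libraries (log2 fold change 0.85, SE 0.27, edgeR adjusted p = 0.113). DESeq2 called none of the 7 in either comparison, and at an unadjusted p under 0.05 edgeR called 1 in each, Treml4.

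The responses of the genotypes to rmCIRP were compared directly in the same fit. The difference passed for 5 of the 7 genes, against 31.4% of all genes: the log2 response was higher in the libraries labelled TLR4-/- for Trem2 by 0.75 (SE 0.13, edgeR adjusted p = 0.000196), for Tyrobp by 0.37 (SE 0.10, edgeR adjusted p = 0.00769) and for Trem1 by 0.42 (SE 0.17, edgeR adjusted p = 0.0690). It was lower for Trem3, at -1.33 (SE 0.40, edgeR adjusted p = 0.0178), and for Treml4, at -1.14 (SE 0.42, edgeR adjusted p = 0.0533). The calls of Trem2, Tyrobp and Trem3 held with each of the 12 libraries left out in turn. That of Trem1 was lost in 8 of the 12 fits, with adjusted p of up to 0.250, and kept without PBS or rmCIRP library 1 of WT or library 2 of the other genotype, and that of Treml4 was lost without WT PBS library 1 or PBS library 3 labelled TLR4-/-, at adjusted p of 0.130 and 0.126. The macrophage markers moved alongside, with 7 of 13 differing upward, 3 downward and a median difference of 0.30; Trem2 lay above each of the 13. For rmTGF-β1 the responses of the genotypes were not shown to differ in any of the 7, with 14 genes called in all (0.0861%).

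Levels also differed between the genotypes. With PBS, 7 of 7 genes were higher in the libraries labelled TLR4-/-, where 47.1% of all genes were called and 23.2% were higher. Trem1 stood at 1657, 1734 and 1566 normalized counts against 175, 228 and 219 in WT, a 7.97-fold difference (log2 2.99, SE 0.11, edgeR adjusted p = 8.26e-16), which 0.308% of all genes matched or exceeded. Treml2, which encodes a receptor of B cells and macrophages, was at 88.9, 57.2 and 67.7 against 3.85, 5.99 and 8.33 (log2 3.54, SE 0.32, edgeR adjusted p = 4.47e-09). All 7 genes had groups that did not overlap, as did 51.7% of all genes.

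Trem2 and Tyrobp were 4.32-fold and 3.91-fold higher (log2 2.11, SE 0.09, and log2 1.97, SE 0.07), Trem3 differed by 2.57 (SE 0.28), Hcst by 1.89 (SE 0.33) and Treml4 by 1.39 (SE 0.30) on the log2 scale, all past the threshold. The 13 macrophage markers were all higher as well, by 1.49 to 2.81 with a median of 2.20, and their part in the difference was not tested. With PBS, Trem1 and Treml2 exceeded each of the 13 markers, Treml4 lay below each of them, and the other 4 genes lay within their range. Fibroblast markers had a median of -0.11, with 1 of 8 higher and 3 lower.

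With rmCIRP the genotype difference was called in 6 of 7 genes (59.5% of all genes, 30.4% higher), with rmTGF-β1 in 7 (46.5%, 24.4% higher) and with both agents in 7 (52.8%, 26.8% higher), upward in each. Treml4 was the exception with rmCIRP: WT libraries had reached 26.5, 24.7 and 26.7 normalized counts and those labelled TLR4-/- stood at 26.5, 38.0 and 27.5 (log2 0.25, SE 0.29, edgeR adjusted p = 0.482). With both agents its call, at 0.76 (SE 0.27), was lost without WT library 1 or without library 3 labelled TLR4-/-, at adjusted p of 0.113 and 0.170. The place among the 13 macrophage markers also varied with treatment. With rmCIRP, rmTGF-β1 and both agents, Trem1 exceeded 13, 13 and 11 of them, Treml2 8, 13 and 11, and Treml4 0, 0 and 1.

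**Figure D3:**
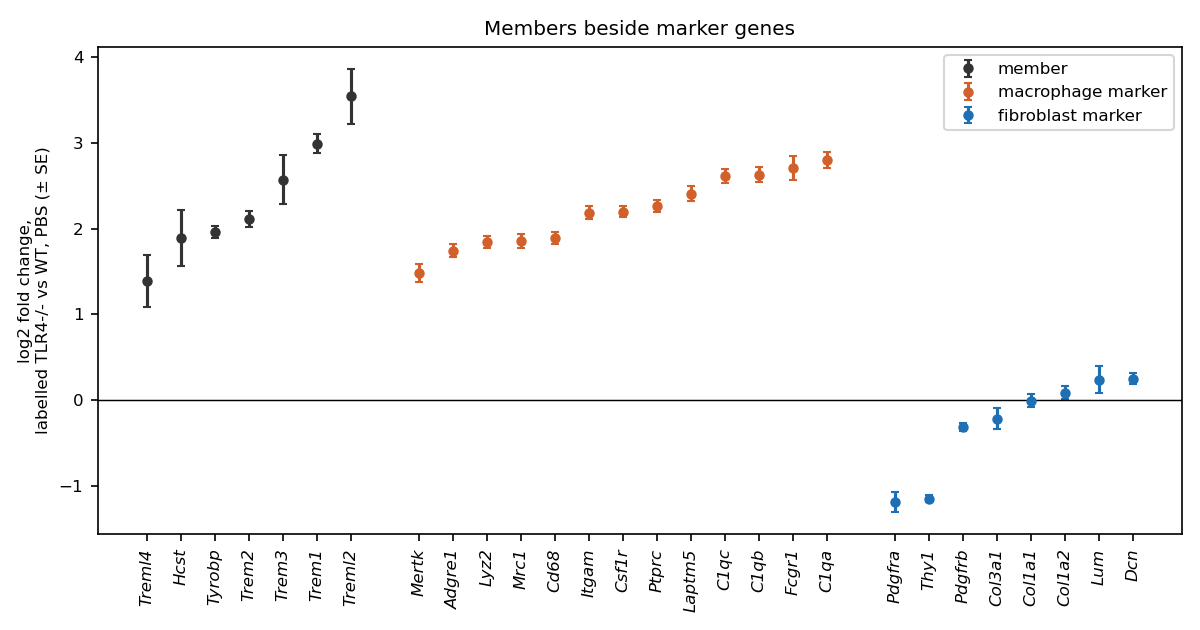
Log2 fold change (± SE) of libraries labelled TLR4-/- against WT with PBS, 3 against 3, for the 7 genes, 13 macrophage markers and 8 fibroblast markers. Trem1 (2.99) and Treml2 (3.54) lie above the macrophage markers (1.49 to 2.81), and Treml4 (1.39) lies below them.

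Ratios within a library show how the receptors stood to their adaptor. Tyrobp kept close to the summed macrophage markers in all 24 libraries: for every 1000 reads on the 13 markers there were 15.1 to 17.7 reads on Tyrobp, although the marker level itself spanned 74995 to 435575 normalized counts. Most of that sum is Lyz2, 74.8% to 81.5% of it, so that the band mainly sets Tyrobp against this 1 gene, with 19.2 to 23.5 Tyrobp reads for every 1000 on Lyz2. Against the other 12 markers, a sum chosen after the data were seen, Tyrobp varied more, from 67.1 to 92.4 per 1000 reads: 86.1 to 90.96 in WT with PBS, 74.2 to 75.1 with rmCIRP and 67.1 to 72.96 in the 12 libraries labelled TLR4-/-. Within the narrow band of all 13 the WT libraries with rmCIRP were lowest, at 15.5 to 15.9 against 16.5 to 17.1 with PBS, and at 15.1 to 15.6 with both agents.

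Trem2 did not keep to its adaptor. For every 100 Tyrobp reads there were 49.8, 53.8 and 52.3 Trem2 reads in WT with PBS, and 53.9, 53.5 and 56.4 with rmTGF-β1. With rmCIRP the ratio was 36.9, 40.6 and 37.6, and with both agents 37.5, 38.7 and 39.4. All 6 WT libraries with rmCIRP were below all 18 others, and the 12 libraries labelled TLR4-/- ran from 54.2 to 62.5 whatever the agent. The fall of Trem2 in WT was thus larger than that of Tyrobp within the same libraries, which is a description without a test of its own.

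Trem1 differed from Trem2 in this respect. For every 100 Tyrobp reads there were 10.4 to 20.1 Trem1 reads in the 12 WT libraries and 22.5 to 32.8 in the 12 labelled TLR4-/-, ranges that did not overlap. In WT, rmCIRP alone hardly moved the ratio, from a mean of 12.7 ± 1.33 to 11.9 ± 1.60 (SD, n = 3 each). With both agents it was 17.9, 20.1 and 15.6, above the 13.6, 11.2 and 13.1 with rmTGF-β1 alone. For Hcst there were 0.173 to 0.957 reads per 100 of Tyrobp in WT (median 0.520), on few reads, and 0.368 to 0.652 in the other genotype (median 0.507), ranges that overlapped.

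**Figure D4:**
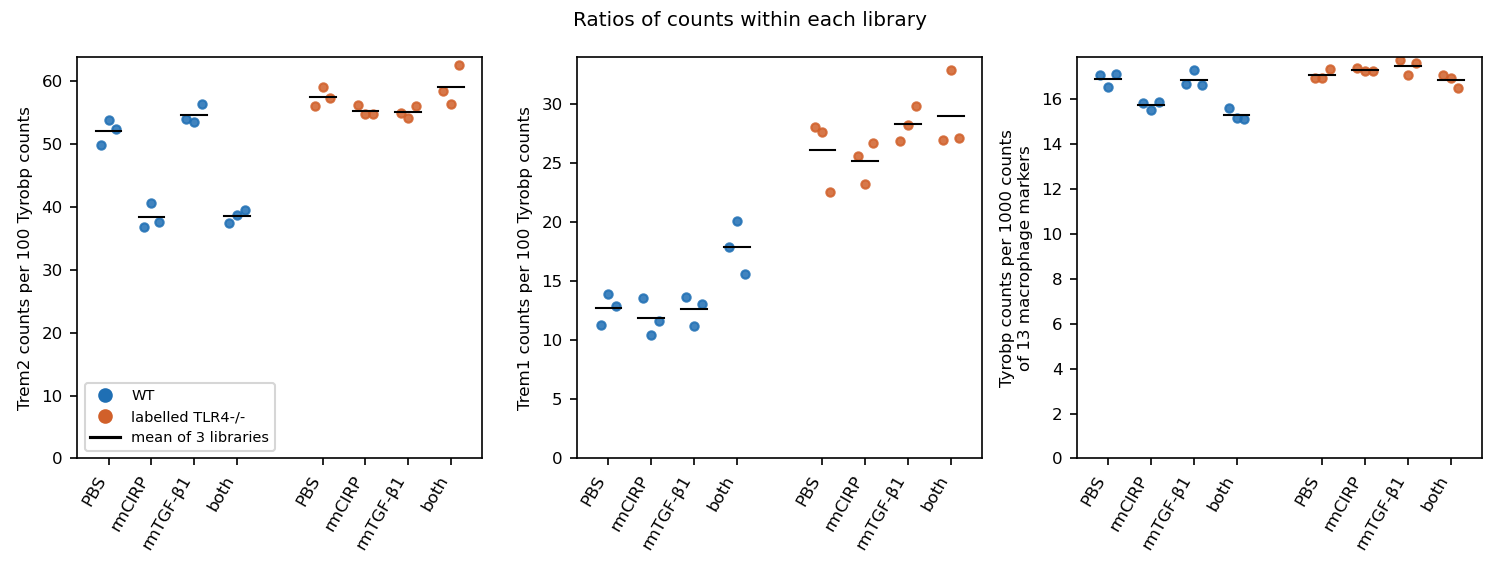
Reads on Trem2 and on Trem1 per 100 reads on Tyrobp, and reads on Tyrobp per 1000 reads on 13 macrophage markers, in 24 libraries (points) with the mean of 3 (bars). The Trem2 ratio drops from about 52.0 to 38.4 with rmCIRP in WT and stays between 54.2 and 62.5 in libraries labelled TLR4-/-, while Tyrobp stays between 15.1 and 17.7 against a marker sum that is mostly Lyz2.

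The other receptors that use DAP12 or DAP10 split in WT as the TREM genes did. Of 14 listed, 9 were tested, and with rmCIRP 4 rose and 4 fell, with a median of -0.29. Cd300lb, an activating receptor of the CD300 family, fell by 2.66 on the log2 scale (SE 0.16), and the signal-regulatory protein genes Sirpb1c and Sirpb1a fell by 1.16 (SE 0.18) and 1.12 (SE 0.32), near-identical copies whose reads may be split between them. Pilrb1 and Pilrb2, activating paired immunoglobulin-like receptors and likewise close paralogs, rose by 0.94 (SE 0.14) and 0.79 (SE 0.14), and Clec5a by 0.16 (SE 0.07). With PBS all 9 were higher in libraries labelled TLR4-/- than in WT (median 2.08), where 47.1% of all genes were called and 23.2% were higher. With rmCIRP none of the 9 was called in those libraries, nor was any other gene, 0% of those tested.

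Downstream of the adaptors, 24 signalling genes were tested, of which 7 rose and 10 fell with rmCIRP in WT (median -0.01). Syk, the kinase that binds the ITAM of DAP12, rose by 1.50 (SE 0.11) and Malt1, the paracaspase of the CARD9 complex, by 2.05 (SE 0.09). Fcer1g, the ITAM adaptor of Fc receptors, rose by 0.57 (SE 0.07) and so went opposite to Tyrobp. Fgr, a Src-family kinase, fell by 1.12 (SE 0.20), and the linker Lat2 and the scaffold Card9 each fell by 0.81 (SE 0.14 and 0.16).

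Among 10 inhibitors of ITAM signalling, 3 rose and 3 fell (median 0.07). Inpp5d, encoding the phosphatase SHIP1, fell by 1.43 (SE 0.10), Dok1 by 0.52 (SE 0.06) and Lilrb4a by 0.39 (SE 0.07). Pirb, an inhibitory receptor of myeloid cells, rose by 0.71 (SE 0.10), and the ubiquitin ligases Cbl and Cblb by 0.21 (SE 0.05) and 0.17 (SE 0.07).

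Of 11 tested ligands, co-receptors and sheddases, 2 rose and 3 fell (median -0.05). Mmp9, a protease reported to shed TREM-1, rose by 1.09 (SE 0.10) and Adam17, a sheddase of TREM-2, by 0.20 (SE 0.03). Cirbp, which encodes CIRP itself, fell by 0.47 (SE 0.09), Adam10 by 0.30 (SE 0.03) and Plxna1, a partner of TREM-2, by 0.27 (SE 0.04). Of 17 genes reported to depend on Trem2 in microglia and macrophages, 2 rose and 6 fell (median -0.09): Lgals3, galectin-3, fell by 0.73 (SE 0.12), Igf1 by 0.60 (SE 0.06) and Gpnmb by 0.40 (SE 0.09), whereas Itgax, CD11c, rose by 0.51 (SE 0.12). Against the 43.9% of all genes called in this comparison, the share called was 8 of 9 for the other receptors, 17 of 24 for signalling, 6 of 10 for inhibitors, 5 of 11 for ligands and sheddases and 8 of 17 for the Trem2 genes. Another TREM-like gene at the locus, Treml1, is known from platelets and was scarce, with means of 1.00 to 4.70 normalized counts in the 4 WT conditions and 13.1 to 23.9 in the others. In WT it stood at 4.70 ± 2.65 with PBS and 1.00 ± 0.99 with rmCIRP (SD, n = 3 each). No WT library exceeded 7.61 normalized counts, under the minimum count of 10 of the filter on low counts. Treml1 was thus tested only through its level in the libraries labelled TLR4-/-. No fold or call is given for it, since WT libraries held few reads or none.

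**Figure D5:**
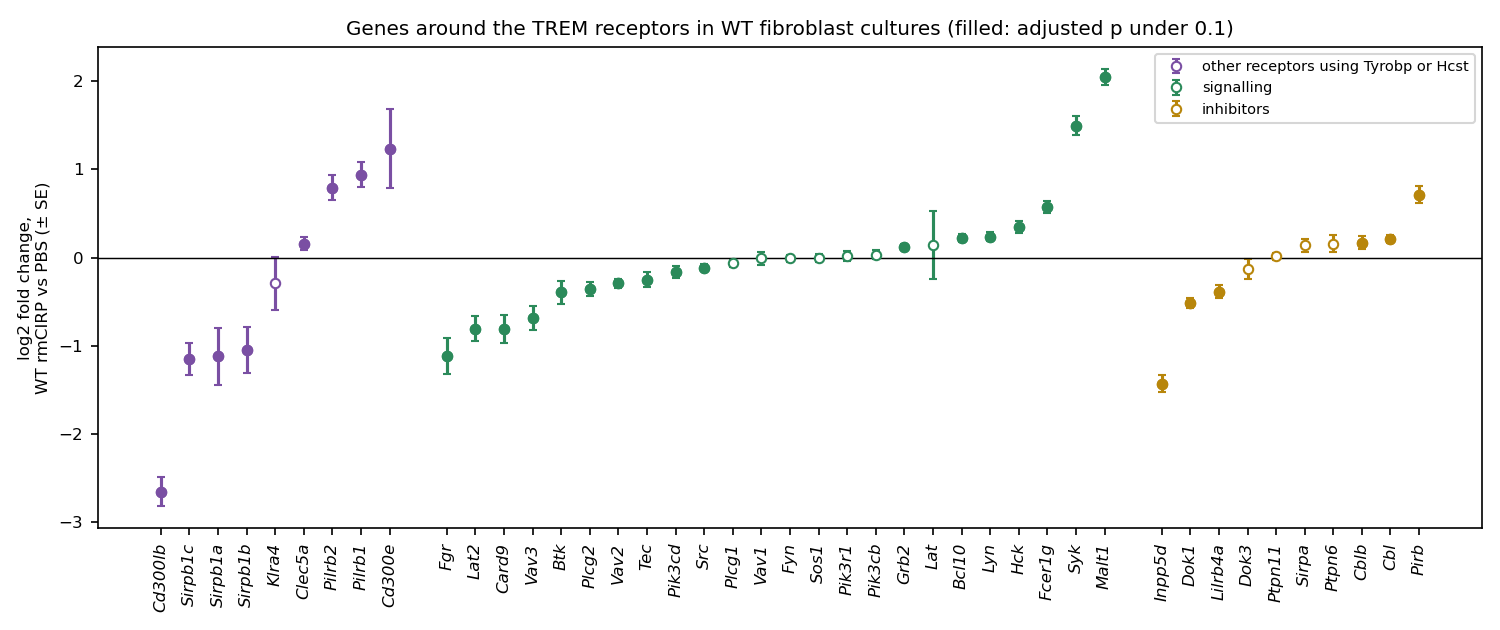
Log2 fold change (± SE) of WT libraries with rmCIRP against PBS, 3 against 3, for 9 other receptors using Tyrobp or Hcst, 24 signalling genes and 10 inhibitors; filled symbols passed an adjusted p under 0.1. Malt1 (2.05) and Syk (1.50) lie highest among the signalling genes, and Cd300lb (-2.66) lies lowest of all.

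For Tyrobp, Trem2 and Trem1, the genes whose log2 level followed them most closely over the 24 libraries are given. They are a description, since the libraries fall into 2 clusters by genotype. Within WT, Trem2 and Tyrobp in turn stood lower in every library with rmCIRP than in every library without it. Their r within WT therefore also holds that difference. The scarce genes Trem3, Treml2, Treml4 and Hcst are left out here. Tyrobp was followed most closely by Lyz2, C1qc, C1qa, C1qb and Stab1, macrophage genes, with Pearson's r from 0.95 to 0.99 within the 12 WT libraries and from 0.71 to 0.96 within the 12 others. Trem2 was followed by Cd300c2, Myo1f, Lat2, Cd84 and Arhgap45, with r from 0.96 to 0.98 within WT and from 0.86 to 0.96 within the others. Trem2 and Tyrobp followed each other at r of 0.96 and 0.92. For Trem1 the closest were Csf1r, Ssh2, Itgb2, Fcrls and Cd72, but within the genotypes r fell to between 0.52 and 0.80 in WT and between -0.00235 and 0.78 in the others. Trem1 followed its adaptor Tyrobp at r of 0.35 in WT and 0.41 in the other genotype. These points share libraries and sequencing depth, and 12308 genes were compared.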

How the data were processed

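Total RNA was sequenced in 24 libraries. STAR2 was the aligner the authors used, with mouse GENCODE as reference, and the deposited files hold raw, unnormalized ht-seq counts for each gene name. The submitters' processing notes name FastQC, HTSeq and the build NCBIM37. The annotation release and the strand option are not given in the sources used here. The 5 tally lines of reads not given to a gene, 14.5% to 16.1% of reads, were left out, and all other lines were used.

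Libraries were grouped by their labels. Counts were tested in edgeR 4.0.16 (R 4.3.3): filterByExpr left 16258 genes, TMM set the library sizes, 8 condition means were estimated jointly from the 24 libraries, and contrasts were tested by quasi-likelihood. P-values were adjusted by Benjamini-Hochberg across those 16258 genes and called under 0.1, the cut-off of the study. SE is the log2 fold change divided by the root of F. Normalized counts are counts divided by DESeq2 size factors and describe levels only. RPKM used exon lengths of GENCODE M21, and promoter windows came from RefSeq (GRCm38.p6). Genome coordinates are given for these windows alone, in GRCm38.p6, whereas the submitters' notes name the build NCBIM37.

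The members, gene lists and tests were chosen with earlier results of these data known. All 7 members were tested in each comparison. Each is named for rmCIRP against PBS in WT and for the genotypes with PBS. In the other comparisons values are given for some members only. From every other list at most 3 rising and 3 falling genes are named, if they averaged 50 normalized counts or more over 24 libraries. Treml1, the sole other gene of the locus counted, was named after its values were seen, as were the 3 macrophage markers that rose. For likeness, the 5 genes with the highest Pearson's r of log2 CPM are named for Tyrobp, Trem2 and Trem1. Planned comparisons numbered 10, and 3 were added after the data were seen: the genotypes against each other with rmCIRP, rmTGF-β1 and both. Alternatives were DESeq2 1.42.0, RLE scaling, other filters, a replicate block, the libraries compared alone, and each library left out. The fit was tested on simulated data. Replicate pairs differed by more than counting error (chi-square per degree of freedom 2.67 to 50.6 over 24 pairs), so none was counted as a duplicate; the highest was libraries 1 and 3 labelled TLR4-/- with both agents.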

Additional observations from a re-analysis of the deposited data

Results flagged for a closer look

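For 5 genes the response to rmCIRP differed between the genotypes by a test of the difference itself (edgeR, TLR4-/- label minus WT, 3 libraries in each of 4 conditions). On the log2 scale the difference was 0.75 for Trem2, 0.37 for Tyrobp and 0.42 for Trem1, whose mRNA fell in WT. It was -1.33 for Trem3 and -1.14 for Treml4, whose mRNA rose in WT on few reads. In the libraries labelled TLR4-/- none of the 5 moved past the threshold, with log2 fold changes from -0.39 to -0.02. The difference was called in 31.4% of all genes tested, and among the macrophage markers 7 of 13 differed upward and 3 downward, with a median of 0.30. With single libraries left out, Trem1 lost the call in 8 of 12 fits, with adjusted p of up to 0.250, and Treml4 in 2.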

How the results depend on the processing

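Apart from leaving out single libraries, 492 of 512 repeated values kept their direction and side of the threshold. The replicate numbers did not pair the libraries (mean r 0.0111 over 84 same-numbered pairs, -0.111 to 0.349); with the replicate block, 1 member instead of none was called for rmTGF-β1 and for both against rmTGF-β1 in libraries labelled TLR4-/-, Treml4 each time (-0.66 and 0.85). For rmTGF-β1 there, the count of 0 became 1, Treml4, with RLE scaling and with a mean count of 10 as filter. It became 1, Trem1 (0.18), with only the libraries compared, and 2 with no filter, Trem1 and Treml4 (0.16 and -0.68). For both against rmTGF-β1 the count became 1, Treml4 (0.85), with no filter. For the interaction in WT it became 1 with no filter and with DESeq2, Trem1 each time (0.65 and 0.66). With no filter the genotype difference in the Trem2 response to rmTGF-β1 turned to -0.000413. Counts over all genes moved by over 1.5 times in 4 comparisons: for rmCIRP in libraries labelled TLR4-/- from 0 to between 1 and 149, for both against rmTGF-β1 there from 437 to 0 with only the libraries compared and to between 810 and 1580 otherwise, for the genotype difference in the rmTGF-β1 response from 14 to between 22 and 563, and for the interaction in WT from 8 to between 37 and 198. The cause of these changes was not tested.
Leaving out 1 library at a time gave these ranges of log2 fold change or count. In WT with rmCIRP against PBS, Treml2 ran from 0.70 to 1.22 and passed without WT PBS or rmCIRP library 3, and Treml4 from 0.59 to 0.86, passing only without PBS library 3. For the genotype difference in the rmCIRP response, the members called ran from 3 to 5, Trem1 from 0.29 to 0.54 and Treml4 from -1.35 to -0.96. In libraries labelled TLR4-/- the members called ran from 0 to 1 for rmTGF-β1 and for both against rmTGF-β1. Counts over all genes ran from 0 to 2674 (437 with all libraries) for both against rmTGF-β1 and from 0 to 9 (0) for rmCIRP in libraries labelled TLR4-/-, from 2517, without rmTGF-β1 library 3, to 3783 (3884) for rmTGF-β1 there, from 1029, without rmTGF-β1 library 2, to 1690 (2019) for rmTGF-β1 in WT, from 0 to 119 (14) for the genotype difference in the rmTGF-β1 response and from 2 to 7 (8) for the interaction in WT; in the other comparisons none moved by over 1.5 times. Values near 0 that changed sign were Trem2 for rmTGF-β1 in WT (-0.109 to 0.00472) and in the others (-0.0740 to 0.0572), its genotype difference (-0.0436 to 0.104) and its interaction in WT (-0.0314 to 0.0821), Trem3 (-0.10 to 0.52) and Hcst (-0.27 to 0.33) for both against rmTGF-β1 in WT, Trem1 (-0.143 to 0.0319) and Tyrobp (-0.0756 to 0.0387) for rmCIRP in libraries labelled TLR4-/-, and there, for both against rmTGF-β1, Trem1 (-0.0289 to 0.0617), Trem2 (-0.0284 to 0.187) and Tyrobp (-0.0884 to 0.0497). Depth limits Trem3, Treml2, Treml4 and Hcst, which had 2 to 32 reads per WT library.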
